A study of Rattus norvegicus with 30 samples.

Results

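Glutathione, the tripeptide that holds most of the soluble thiol of a hepatocyte, was followed through the messenger RNA of 7 genes that make, renew and recycle it in rat liver. The members were every probe set annotated to Gss, Gclc, Gclm, Gsr, Oplah, Nat8 or Ggt1 alone. That gave 8 probe sets, 1 per gene and a second for Gclc, of 31042 on the array, or 7 of 14217 named genes. The genes were selected on their measured log2 differences between handled and control rats in these same arrays, above all the lower Gss and the higher Oplah and Nat8. Those differences between handled and control rats are therefore given as a description and not as a test.

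The liver makes glutathione from glutamate, cysteine and glycine. Glutamate-cysteine ligase, a dimer of the catalytic subunit Gclc and the modifier subunit Gclm, joins the first pair of amino acids, and glutathione synthetase, Gss, adds glycine. Glutathione reductase, Gsr, returns the oxidised disulfide to glutathione with NADPH. Outside the cell gamma-glutamyltransferase, Ggt1, cuts the tripeptide, and 5-oxoprolinase, Oplah, turns the 5-oxoproline that forms on the way back into glutamate. Nat8 acetylates the cysteine conjugates that remain when glutathione has been attached to a foreign compound, the last step to a mercapturic acid.

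RNA of the left liver lobe was measured on Affymetrix whole-genome rat arrays, 1 per rat, in 30 female Sprague-Dawley rats 10 weeks of age. In 10 rats handled for 1 day and 10 handled for 4 days, handling meant weighing, restraint in a Broome restrainer, water by gavage each day, and bleeds from the tail vein on the final day of dosing. A further 10 control rats were left unhandled. Controls and 1-day rats are labelled 24 h and 4-day rats 96 h, and no unhandled group was collected with the 4-day rats, so 4 days of handling and the later collection cannot be told apart.

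The promoters of Gss and Nat8 are shown because these genes moved in opposite directions, and that of Gclm because it holds the same motif as Nat8 while its groups overlapped. The motif is the core of the antioxidant response element, TGACNNNGC, through which the transcription factor NRF2 acts on many genes of this pathway. It was searched on both strands, and a match is in capitals. Each sequence runs 5′ to 3′ on the gene's own strand, with 250 bases before and 50 after the start, from RefSeq build GRCr8. Gss lies at chr3:164538257-164538556 (minus strand), Nat8 at chr4:119837715-119838014 (minus strand) and Gclm at chr2:213031885-213032184 (plus strand).
Gss: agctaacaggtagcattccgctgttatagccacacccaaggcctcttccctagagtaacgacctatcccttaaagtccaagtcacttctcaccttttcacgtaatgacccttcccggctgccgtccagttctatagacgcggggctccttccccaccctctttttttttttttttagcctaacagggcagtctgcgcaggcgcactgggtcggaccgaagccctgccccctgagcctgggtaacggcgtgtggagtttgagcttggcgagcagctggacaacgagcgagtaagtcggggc
Nat8: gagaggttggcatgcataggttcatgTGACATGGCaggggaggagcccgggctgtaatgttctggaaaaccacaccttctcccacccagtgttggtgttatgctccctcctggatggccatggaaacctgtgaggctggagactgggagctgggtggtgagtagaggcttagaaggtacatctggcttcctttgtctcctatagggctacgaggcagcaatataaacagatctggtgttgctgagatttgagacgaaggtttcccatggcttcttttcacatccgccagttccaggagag
Gclm: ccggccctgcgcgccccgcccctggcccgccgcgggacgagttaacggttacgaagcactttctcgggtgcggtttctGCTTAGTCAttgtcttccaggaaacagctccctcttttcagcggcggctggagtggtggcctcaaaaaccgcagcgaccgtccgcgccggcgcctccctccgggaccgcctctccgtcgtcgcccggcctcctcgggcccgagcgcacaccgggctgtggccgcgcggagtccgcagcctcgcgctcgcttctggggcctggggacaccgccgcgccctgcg
The Gclm match reads as the motif on the strand opposite to the gene. Of the members, 5 had a promoter entry, and the motif lay in 2 of them, Nat8 and Gclm, and not in Gss, Gclc or Ggt1. Of 33469 rat promoters of this length, 4038 (12.1%) held it. Gsr and Oplah were not matched. The searched window of Ggt1 lay wholly and that of Gclc mostly inside the annotated gene, so other promoters of these genes were not searched.

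Control rats 1, 2 and 3 stood apart from the other 27 rats over the whole array, so the members and the named pathway genes are given with and without them. The 3′ signal of the Gapdh control over its 5′ signal (the Gapdh ratio, as log2), a gauge of RNA integrity, was 0.66 to 0.83 after 1 day and 0.70 to 0.96 after 4 days, against 0.55 to 0.70 in control rats. It was above every control in 7 of 10 and 10 of 10 rats. Intensities were on a linear scale with an array mean close to 1, and array medians were 0.118 to 0.125. The summed intensity of 7 hepatocyte markers was 273 to 297 after 1 day, 267 to 312 after 4 days and 267 to 310 in control rats. Bright markers such as Alb weigh most in this sum. After 4 days 5 of the 7 were higher and 2 lower, with Hnf4a at 0.20 ± 0.07 and Tat at -0.53 ± 0.18 (log2 fold change ± SE). No hepatocyte marker passed the test. In RNA of whole tissue, fewer cells of a type and less RNA per cell cannot be told apart.

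All members but Ggt1 were brighter than most probe sets, and detection itself was not tested. The mean log2 intensity of Gclm, Gclc, Nat8, Oplah, Gss and Gsr ranked at the 92.2nd, 92.7th, 89.4th, 88.0th, 85.9th and 71.0th percentile of all probe sets, and that of the dimmer Gclc probe set at the 78.4th. Ggt1, at the 31.4th percentile, was dim.

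Oplah separated the groups most fully. Its intensity was 1.34 to 2.09 (median 1.67) after 1 day and 1.12 to 1.88 (median 1.54) after 4 days, against 0.995 to 1.28 (median 1.10) in control rats. All 10 of the 1-day rats and 8 of 10 of the 4-day rats lay above every control. Over the whole array, 0.0193% of probe sets kept the 1-day and control groups fully apart in either direction, and 0.00644% with the handled rats higher. For the 4-day and control groups the share was 0.0322%. The log2 fold change, handled minus control, was 0.57 ± 0.09 after 1 day and 0.44 ± 0.09 after 4 days (SE, n = 10 per group). The rats that overlapped with controls were 4-day rats 4 and 5, at 1.12 and 1.26.

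Nat8 had the largest difference of the members, with 2.38 as the median intensity after 1 day (1.19 to 3.13) and 1.83 after 4 days (1.34 to 2.18), against 1.18 in control rats (0.686 to 1.50). In each handled group 8 of 10 rats lay above all controls. The exceptions were 1-day rats 8 and 9, at 1.31 and 1.19, and 4-day rats 6 and 8, at 1.40 and 1.34, which lay within the control range. The log2 fold change was 0.83 ± 0.16 after 1 day and 0.59 ± 0.16 after 4 days. Its close relative Nat8b, a separate gene whose probe set could share signal with it, differed by 0.22 ± 0.16 (adjusted p = 0.716) and 0.42 ± 0.16 (adjusted p = 0.298) in limma with Benjamini-Hochberg adjustment, and did not pass on either day. It was at 0.18 ± 0.19 and 0.38 ± 0.19 without control rats 1, 2 and 3 and at 0.52 ± 0.18 and 0.78 ± 0.19 with the Gapdh ratio as a covariate.

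Gss went the other way. Its intensity was 0.688 to 1.51 (median 1.13) after 1 day and 0.828 to 1.26 (median 1.02) after 4 days, against 0.964 to 2.23 (median 1.41) in control rats. The ranges overlapped, since 4 of 10 and 3 of 10 handled rats lay below every control, although 9 of 10 and 10 of 10 lay below the control median. The log2 fold change was -0.41 ± 0.12 after 1 day and -0.50 ± 0.12 after 4 days. The study lists Gss with the opposite sign, at a similar size of fold change. Here the folds were 1.33 after 1 day and 1.41 after 4 days, with the handled rats lower. The signs here follow the group names in the sample labels, and the cause of the difference was not tested.

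**Figure D1:**
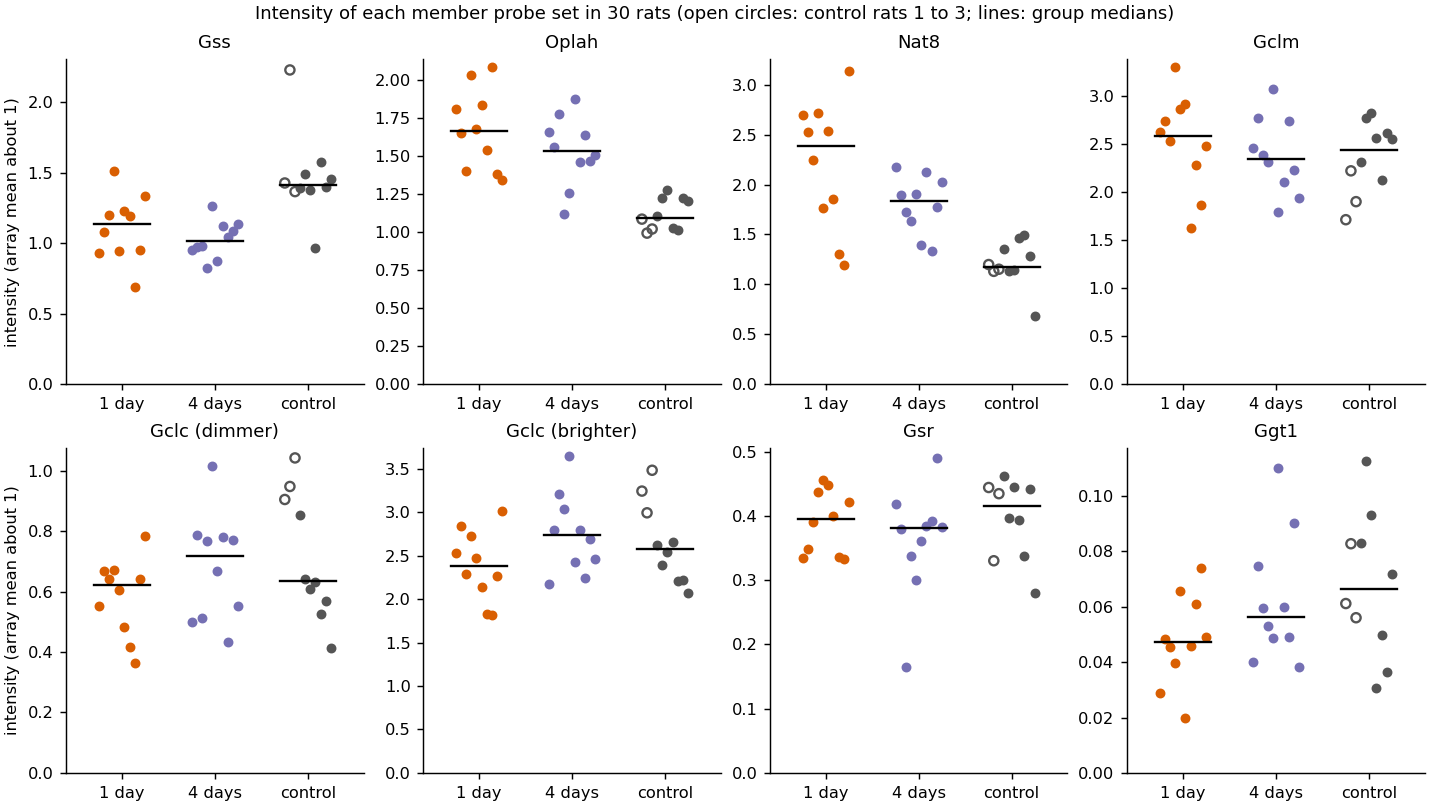
Intensity (linear scale, array mean about 1) of the 8 member probe sets in each rat, by group, with group medians as lines and control rats 1 to 3 as open circles. Oplah and Nat8 sit higher and Gss lower in handled rats, while the other probe sets overlap between groups.

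Within single rats, the log2 ratio of Oplah to Gss averaged 0.62 ± 0.44 after 1 day and 0.57 ± 0.31 after 4 days, against -0.37 ± 0.34 in control rats (SD, n = 10 each). It was above all controls in 9 of 10 rats of both handled groups. The ratio of Nat8 to Gss averaged 0.96 ± 0.33 and 0.80 ± 0.23, against -0.29 ± 0.48, with 9 of 10 and 8 of 10 rats above all controls. These ratios compare differences within a rat, not levels of the genes, since each probe set has its own response. Each joins a gene chosen as higher to Gss, chosen as lower, so separation of the groups was built into the choice.

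**Figure D2:**
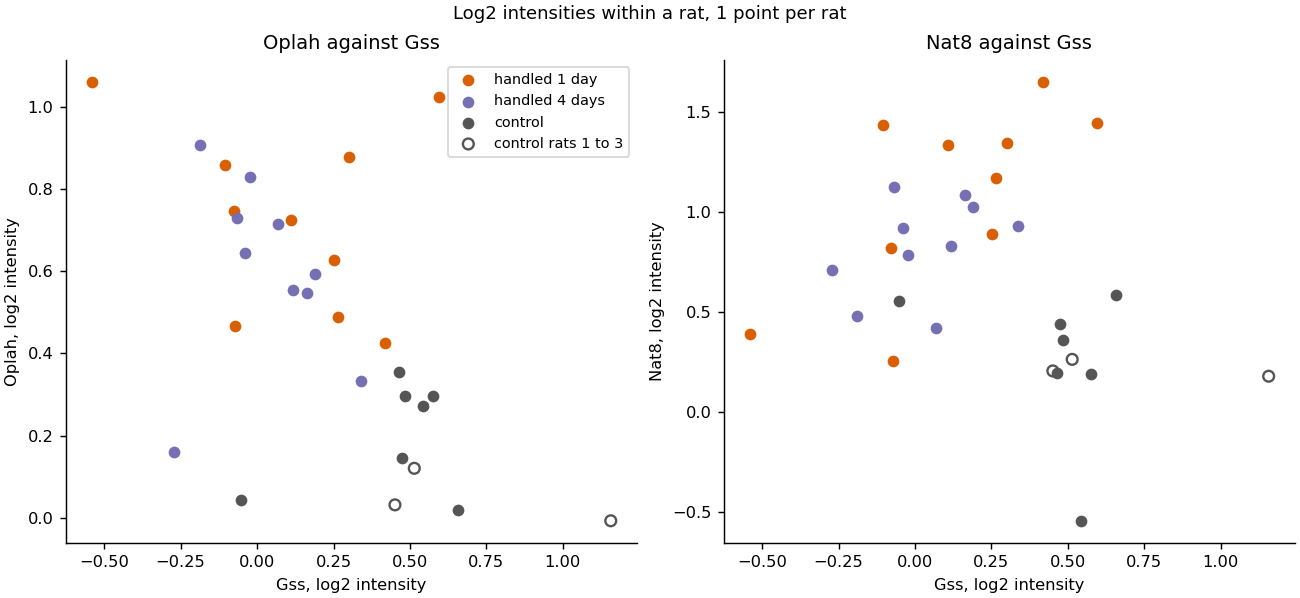
Log2 intensity of Oplah (left) and Nat8 (right) against that of Gss, 1 point per rat, with control rats 1 to 3 as open circles. Most handled rats lie up and to the left of control rats, with exceptions such as 1-day rat 4 in Gss, and the Oplah to Gss ratio was above all controls in 9 of 10 rats of each handled group. The genes were chosen on this comparison, so the separation is a description.

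For Gss, control rats 1, 2 and 3 were at 1.43, 2.23 and 1.37, and the other 27 rats at 0.688 to 1.58, so 1 of the 3 was above all others. Their Oplah (1.09, 0.995 and 1.02) and Nat8 (1.20, 1.13 and 1.15) were at or near the low end of the other rats, 1.01 to 2.09 and 0.686 to 3.13. Without them the log2 fold change of Gss was -0.33 ± 0.13 after 1 day and -0.42 ± 0.13 after 4 days, that of Oplah 0.53 ± 0.10 and 0.40 ± 0.10, and that of Nat8 0.82 ± 0.18 and 0.58 ± 0.18. The direction held for all 3 genes, and Oplah and Nat8 kept most of their size. The log2 ratio of Oplah to Gss in the 7 remaining controls was -0.25 ± 0.22. In those 7 controls that of Nat8 to Gss was -0.20 ± 0.50.

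In the fit across 31042 probe sets, 2 of 8 member probe sets passed an adjusted p under 0.1 after 1 day, Oplah and Nat8, where 0.0902% of all probe sets did. After 4 days 2 passed, Oplah and Gss, where 0.657% did. Nothing is read from these counts, since the comparison chose the genes. Without control rats 1, 2 and 3 Oplah and Nat8 passed after 1 day, where 0.329% of all probe sets did, but only Oplah after 4 days, where 0.828% did. With the Gapdh ratio in the fit no member passed, where 0.0% of all probe sets did after 1 day and 0.0161% after 4 days, and the log2 fold changes were -0.36 ± 0.15 and -0.44 ± 0.16 for Gss, 0.49 ± 0.11 and 0.35 ± 0.12 for Oplah and 0.86 ± 0.19 and 0.62 ± 0.20 for Nat8. The ratio was above every control in 7 of 10 rats after 1 day and 10 of 10 after 4 days, so handling and RNA integrity cannot be told apart by this fit. The fits that left out single rats reuse the comparison that chose the genes, so nothing is read from their counts either. Leaving out single rats, Oplah passed in 30 of 30 fits on both days, Nat8 after 1 day in 26 and Gss after 4 days in 18. Over the same fits 1 to 44 of 31042 probe sets passed after 1 day and 86 to 307 after 4 days. Nat8 did not pass without 1-day rat 1, 2, 4 or 7, with log2 fold changes of 0.74 to 0.92 over all 30 fits. Gss did not pass without control rat 1, 2, 3, 5, 6 or 8 or 4-day rat 1, 2, 3, 4, 6 or 8, with -0.56 to -0.43 over the 30 fits, so its call was near the threshold. Nat8 after 4 days, not called with all 30 rats, passed in 5 of the 30.

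**Figure D3:**
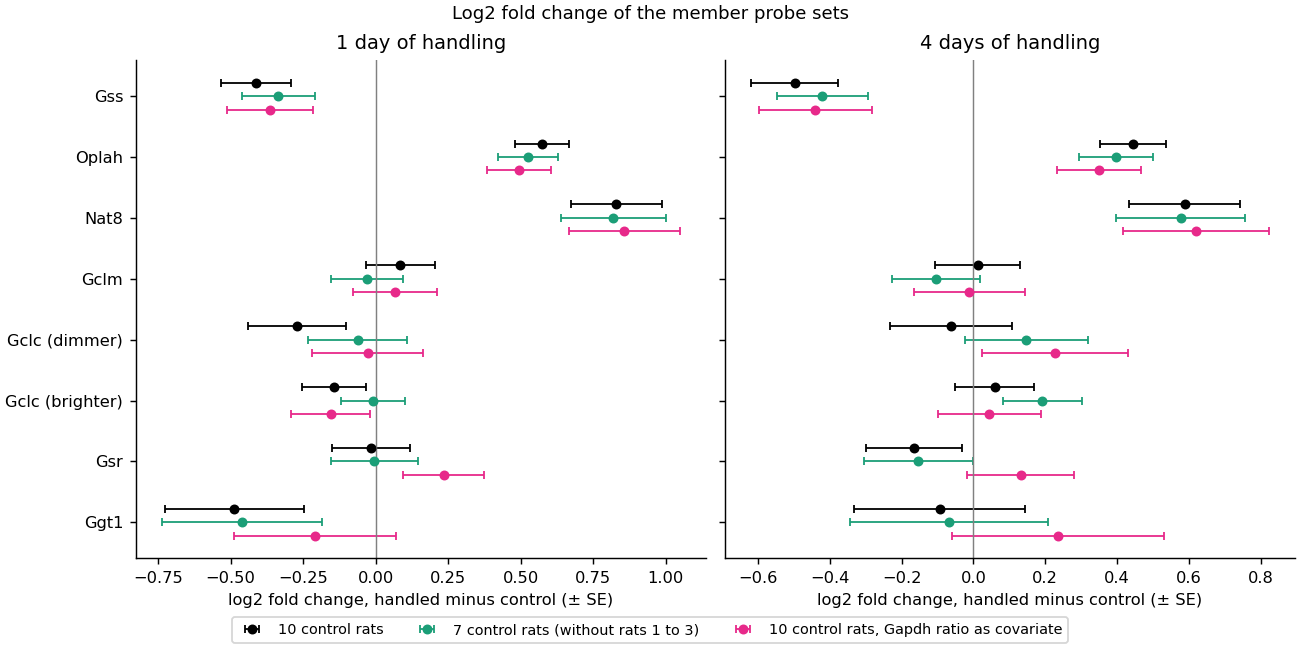
Points are log2 fold changes, handled minus control, and bars their standard errors, for the 8 member probe sets after 1 day (left) and 4 days (right), with all 10 controls, with 7 controls and with the Gapdh ratio as a covariate. Gss lies below 0 and Oplah and Nat8 above 0 under all 3, while Gclm, the dimmer Gclc probe set, Gsr and Ggt1 change side between settings on at least 1 of the days.

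The ligase subunits had small differences of mixed sign. Gclc, by its brighter probe set, had 1.81 to 3.02 (median 2.38) after 1 day and 2.18 to 3.65 (median 2.74) after 4 days, against 2.07 to 3.48 (median 2.58) in control rats. The dimmer probe set had 0.363 to 0.783 and 0.432 to 1.02, against 0.412 to 1.04. Its log2 fold changes were -0.27 ± 0.17 and -0.06 ± 0.17, and those of the brighter one -0.14 ± 0.11 and 0.06 ± 0.11. Control rats 1, 2 and 3 were high in both, at 0.904, 0.948 and 1.04 in the dimmer and 3.24, 2.99 and 3.48 in the brighter. Without them the values were -0.06 ± 0.17 and 0.15 ± 0.17 for the dimmer, and -0.01 ± 0.11 and 0.19 ± 0.11 for the brighter. Within groups the 2 probe sets varied together over 27 rats, with a Pearson's r of 0.79 (permutation p = 1e-05, the smallest 100000 resamples can give), a Spearman's rho of 0.75 (p = 5e-05) and an r of 0.73 without the 2 rats farthest from the median.

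Gclm had 1.62 to 3.30 (median 2.58) after 1 day and 1.80 to 3.07 (median 2.35) after 4 days, against 1.71 to 2.83 (median 2.44) in control rats. The groups overlapped over most of their range. Its log2 fold change was 0.09 ± 0.12 and 0.01 ± 0.12, and -0.03 ± 0.12 and -0.10 ± 0.12 without control rats 1, 2 and 3. Unlike Gclc, Gclm was low in those rats, at 1.71, 2.22 and 1.90.

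Gsr had 0.333 to 0.456 (median 0.395) after 1 day and 0.165 to 0.490 (median 0.381) after 4 days, against 0.280 to 0.462 (median 0.416) in control rats, with log2 fold changes of -0.02 ± 0.13 and -0.17 ± 0.13. The groups shared nearly all of their range, and 4-day rat 3 alone, at 0.165, lay well below the rest. With the Gapdh ratio as a covariate the values were 0.23 ± 0.14 and 0.13 ± 0.15, with the sign turned.

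Ggt1 had 0.0198 to 0.0740 (median 0.0472) after 1 day and 0.0383 to 0.110 (median 0.0562) after 4 days, against 0.0307 to 0.113 (median 0.0664) in control rats. Its log2 fold changes of -0.49 ± 0.24 and -0.09 ± 0.24 had the widest errors of the members, and its groups overlapped. With the Gapdh ratio as a covariate they were -0.21 ± 0.28 and 0.24 ± 0.30. Ggt1 is known as an enzyme of bile duct cells in adult liver. The summed intensity of 5 bile duct markers was 0.679 to 1.09 (median 0.797), 0.603 to 1.20 (median 0.721) and 0.630 to 1.26 (median 0.929) in 1-day, 4-day and control rats. Of the 5, 0 passed in either comparison with control. After 1 day 3 were lower and 2 higher, and after 4 days 4 were lower and 1 higher. Epcam, the brightest, weighs most in the sum and was at -0.17 ± 0.14 and -0.39 ± 0.14. The part of these cells in Ggt1 was not tested.

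The 4-day rats could be set against the 1-day rats as a test, since this comparison did not choose the genes. Of the 8 probe sets 0 passed (limma with Benjamini-Hochberg adjustment, adjusted p of 0.992 to 0.995), and 0 of 31042 passed, with 1551 (5.0%) at an unadjusted p under 0.05. For Gss the log2 difference, 4 days minus 1 day, was -0.09, with a 95% interval of -0.34 to 0.16. For Oplah it was -0.13 (-0.32 to 0.06) and for Nat8 -0.24 (-0.56 to 0.08). The largest size was that of Ggt1, 0.39 (-0.10 to 0.88), and Gclc by its brighter probe set was at 0.20 (-0.02 to 0.43). These intervals leave room for a difference in either direction in each of the 8.

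Rats of the same group differed in each member, which allows a test of whether the genes vary together that is independent of the comparison of groups. Deviations of log2 intensity from the group mean were correlated over 27 rats, without control rats 1, 2 and 3, in 28 relations, 21 between members and 7 with the Gapdh ratio. By permutation within groups, 0 of 28 passed a Benjamini-Hochberg adjusted p under 0.1, the smallest was 0.139, and 4 had an unadjusted p under 0.05. Gss and Oplah, which moved apart between groups, had an r of -0.13 (permutation p = 0.562, adjusted p = 0.828, rho = -0.23, rho p = 0.273) within groups. That of Gss and Nat8 was positive, at 0.42 (permutation p = 0.0616, adjusted p = 0.345, rho = 0.37, rho p = 0.085), and 0.43 without the 2 rats farthest from the median. It was 0.70 in 1-day rats, 0.41 in 4-day rats and -0.29 in the 7 controls.

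The strongest relation by rank was between Nat8 and Ggt1, with an r of -0.51 (permutation p = 0.00958, adjusted p = 0.139) and a rho of -0.60 (permutation p = 0.00112, adjusted p = 0.0314). The r was -0.65 in 1-day rats, -0.44 in 4-day rats and -0.41 in the 7 controls. Without the 2 rats farthest from the median of Nat8 it was -0.49, and no rat was left out for its Ggt1 value. Ggt1 was dim, at 0.0198 to 0.113 against array medians of 0.118 to 0.125, which limits what this relation can show. The 2 ligase subunits had an r of 0.47 (permutation p = 0.0266, adjusted p = 0.186, rho = 0.36, rho p = 0.0884) and 0.38 without the 2 farthest rats. Gclc and Nat8 had 0.48 (permutation p = 0.0143, adjusted p = 0.139, rho = 0.43, rho p = 0.0334) and 0.41 without them. Gsr ran against the Gapdh ratio, with an r of -0.56 (permutation p = 0.0149, adjusted p = 0.139, rho = -0.20, rho p = 0.341), but this relation rested on the 2 farthest rats, without which it was -0.13. With the same ratio Gss had an r of -0.15 (permutation p = 0.461, adjusted p = 0.718), Oplah 0.28 (permutation p = 0.195, adjusted p = 0.545) and Nat8 -0.05 (permutation p = 0.806, adjusted p = 0.903).

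**Figure D4:**
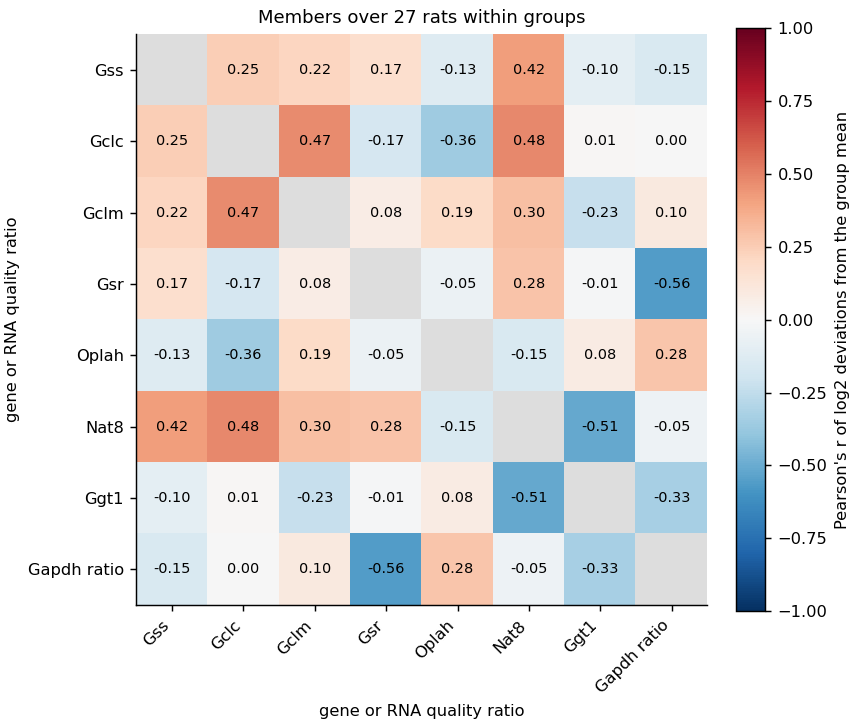
Pearson's r of log2 deviations from the group mean over 27 rats, for the 7 genes and the Gapdh ratio, as a colour scale with the value in each cell. Nat8 with Ggt1 (-0.51) and Gclc with Nat8 (0.48) are among the furthest from 0 of the 28 relations, and none passed the adjusted test.

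A ranking took 12133 probe sets with 1 gene symbol and a mean log2 intensity above the median of all probe sets. It named the genes whose deviations ran most like those of the 3 contrasting members. For Gss these were Mmgt2, Arl1, Txnl4b, Snx8 and Dhrs11, with an r of 0.61 to 0.65, where 95% of probe sets had an r under 0.33. For Oplah they were Eci1 and Eci2, both enoyl-CoA isomerases of fatty acid oxidation, with 0.75 and 0.74, and Hikeshi, Nrp2 and Myo1c, with 0.70 to 0.72, where 95% were under 0.39. For Nat8 they were Cxcl14, a chemokine, Thoc7, Yipf5, Nr0b2, the bile acid-induced repressor SHP, and Tab2, with 0.68 to 0.73, where 95% were under 0.37. No gene was named for more than 1 member. These values are the highest of many and are a description.

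The other genes of the pathway were followed in 9 lists, of which 76 of 80 genes were measured, 1 probe set each. Rose and fell are used of genes with an adjusted p under 0.1. A pair of values is the log2 fold change at 1 day and then at 4 days, with its SE. After 1 day 0 of 76 rose and 0 fell, where 0.12% of all genes passed. At an unadjusted p under 0.05 there were 5 higher and 9 lower (18.4%, against 11.1% of all genes). After 4 days 0 rose and 1 fell, where 0.732% of all genes passed, and 3 were higher and 12 lower at an unadjusted p under 0.05 (19.7%, against 12.6%). Between 4 days and 1 day 0 passed, with 3 lower at an unadjusted p under 0.05 (3.95%, against 4.71% of all genes). The median log2 fold change of the listed genes was -0.01 after 1 day and -0.03 after 4 days, against -0.02 and -0.01 over all genes.

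The gene that fell was Abcc2, the canalicular pump that exports glutathione conjugates and glutathione itself into bile. It had 6.54 to 10.4 (median 8.40) after 1 day and 6.63 to 9.38 (median 7.76) after 4 days, against 6.34 to 14.3 (median 10.9) in control rats. Handled rats lay below the control median in both groups, and the lowest control, rat 2, lay below all of them. Its log2 fold change was -0.45 ± 0.11 after 4 days (limma with Benjamini-Hochberg adjustment, adjusted p = 0.0847) and -0.32 ± 0.11 after 1 day (adjusted p = 0.347). Without control rats 1, 2 and 3 it fell on both days, with a log2 fold change of -0.57 ± 0.10 (adjusted p = 0.0128) after 4 days and -0.44 ± 0.10 (adjusted p = 0.0752) after 1 day. With the Gapdh ratio as a covariate it did not pass (-0.39 ± 0.15, adjusted p = 0.501, after 4 days). It passed in 18 of 30 fits that left out 1 rat, and not without control rat 1, 3, 4, 5 or 6 or 4-day rat 1, 2, 3, 4, 5, 6 or 10.

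Amino acid uptake for glutathione was covered by 8 transporters, of which 0 passed with all controls. Slc3a2, the heavy chain that pairs with the cystine carrier Slc7a11 and with other light chains, had 3.04 to 3.86 (median 3.43) after 1 day and 2.75 to 4.24 (median 3.50) after 4 days, against 3.09 to 5.84 (median 4.28) in control rats. In control rats 1, 2 and 3 it was at 3.09, 3.11 and 3.76, near the low end of the controls. Its log2 fold change was -0.29 ± 0.10 after 1 day (limma, adjusted p = 0.347) and -0.28 ± 0.10 after 4 days (adjusted p = 0.251), and without those rats it fell on both days, at -0.45 ± 0.09 (adjusted p = 0.0446) and -0.44 ± 0.09 (adjusted p = 0.0329). Slc38a2, which takes up neutral amino acids, also fell after 4 days without those rats, at -0.87 ± 0.22 (limma, adjusted p = 0.0834), and was at -0.46 ± 0.25 (adjusted p = 0.495) with them. Slc1a2, a glutamate transporter, was at 0.57 ± 0.25 and 0.34 ± 0.25 and did not pass. The 3 rats lay below the other 27 in it, and without them it was at 0.20 ± 0.23 and -0.04 ± 0.23, with the 4-day sign turned.

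Cysteine supply from methionine had 0 of 8 genes past the test. Cbs, which commits homocysteine to cysteine, was at -0.36 ± 0.14 and -0.30 ± 0.14 with all controls and at -0.07 ± 0.09 and -0.01 ± 0.09 without control rats 1, 2 and 3, whose intensities of 7.01, 6.54 and 6.26 lay above the 2.73 to 4.27 of the other 27. Ahcy, which forms homocysteine, was at 0.15 ± 0.07 and 0.19 ± 0.07 and lay below the other 27 in those 3 rats, without which it was at 0.04 ± 0.06 and 0.08 ± 0.06. Among 5 genes for other uses of cysteine, Ethe1, a sulfur dioxygenase, was at -0.81 ± 0.28 and -0.68 ± 0.28, with intensities of 6.10, 4.78 and 3.33 in the 3 controls and of 0.696 to 1.64 in the other rats. Without them it was at -0.22 ± 0.17 and -0.09 ± 0.17. Csad, of taurine synthesis, was at 0.34 ± 0.22 and -0.18 ± 0.22, and at 0.47 ± 0.21 and -0.04 ± 0.21 without them.

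The 8 measured genes of NADPH supply, which feeds Gsr, had medians of -0.24 (1 day) and -0.23 (4 days) on the log2 scale, with 5 of 8 lower on both days and 0 past the test. Without control rats 1, 2 and 3 the medians were 0.04 and 0.09 and 5 of 8 were higher, so the direction of this list turned. Pgd, of the pentose phosphate pathway, had intensities of 4.40, 8.12 and 4.11 in those rats and of 0.519 to 1.22 in the other 27. Tkt, of the same pathway, had 7.05, 7.91 and 6.77 there and 1.93 to 3.19 elsewhere. Pgls, also of this pathway, was at -0.24 ± 0.09 and -0.23 ± 0.09. It lay above the other 27 in the 3 rats (1.44, 1.77 and 1.51, against 0.967 to 1.35), and was at -0.12 ± 0.08 and -0.10 ± 0.08 without them. H6pd, which makes NADPH inside the endoplasmic reticulum, ran the other way, at 0.35 ± 0.12 (limma, adjusted p = 0.317) and 0.40 ± 0.12 (adjusted p = 0.14), and at 0.16 ± 0.10 and 0.21 ± 0.10 without the 3 rats, in which it was low. Over all 76 listed genes the 3 rats stood above the other 27 in 13 (17.1%, against 4.56% of all genes) and below in 5 (6.58%, against 4.33%).

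Glutathione breakdown and the steps next to Nat8 did not pass. Of 10 breakdown genes, Ggt5, a relative of Ggt1, was at 0.54 ± 0.27 and 0.42 ± 0.27 and Chac2, which degrades glutathione in the cytosol, at 0.12 ± 0.09 and -0.06 ± 0.09. Without control rats 1, 2 and 3 Ggt5 was at 0.50 ± 0.28 and 0.38 ± 0.28 and Chac2 at 0.09 ± 0.10 and -0.09 ± 0.10. Cndp2, a dipeptidase that can split cysteinylglycine, was at -0.04 ± 0.13 and 0.03 ± 0.13. It rose after 4 days without control rats 1, 2 and 3, at 0.30 ± 0.07 (limma, adjusted p = 0.0545), and had 1.36, 1.84 and 1.83 in those rats, against 0.789 to 1.20. In the mercapturic acid list of 5, Acy1, an aminoacylase that can remove the acetyl group Nat8 adds, was at -0.33 ± 0.12 and -0.29 ± 0.12, and was high in the 3 rats (8.37, 8.14 and 5.85, against 3.32 to 5.15). Without them it was at -0.10 ± 0.08 and -0.06 ± 0.08. Kyat3, a cysteine conjugate beta-lyase, was at 0.23 ± 0.08 and 0.16 ± 0.08, and at 0.24 ± 0.09 and 0.16 ± 0.09 without them.

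Of 19 enzymes that use glutathione or reduce disulfides 0 passed, and their median was -0.04 after 1 day and -0.02 after 4 days. Glrx2, a mitochondrial glutaredoxin, was at -0.26 ± 0.08 (limma, adjusted p = 0.231) and -0.20 ± 0.08 (adjusted p = 0.268), and Adh5, which reduces S-nitrosoglutathione, at 0.22 ± 0.07 and 0.11 ± 0.07. Without control rats 1, 2 and 3 Glrx2 was at -0.23 ± 0.08 and -0.17 ± 0.08. Adh5 had 9.24, 9.67 and 9.53 in those rats and 10.3 to 14.6 in the other 27, and was at 0.10 ± 0.07 and -0.007 ± 0.07 without them, with the 4-day sign turned. Of 6 measured transport genes, Slc25a10 and Slc25a11, mitochondrial carriers proposed to take up glutathione, were at -0.13 ± 0.09 and -0.04 ± 0.09, and at -0.0042 ± 0.05 and -0.12 ± 0.05. Without the 3 rats they were at -0.06 ± 0.10 and 0.03 ± 0.10, and at -0.02 ± 0.05 and -0.14 ± 0.05. The 7 regulators had medians of 0.06 and -0.03 and 0 passed. Bach1, a repressor at antioxidant response elements, was dim and at 0.52 ± 0.26 and 0.27 ± 0.26, and Atf4, which drives amino acid transport and synthesis genes, was at -0.12 ± 0.08 on both days. Without the 3 rats Bach1 was at 0.42 ± 0.29 and 0.17 ± 0.29 and Atf4 at -0.07 ± 0.09 on both days. With the Gapdh ratio as a covariate Bach1 was at 0.29 ± 0.30 and 0.0002 ± 0.32. Nfe2l2, which encodes NRF2, was at -0.14 ± 0.09 and -0.03 ± 0.09. Its intensity was 5.16, 4.76 and 4.53 in the same 3 controls, of which only rat 1 lay above the 2.87 to 4.86 of the other 27 rats. Slc38a2, Cndp2, Pgd, Tkt, Nfe2l2 and Nat8b are named here after their values were seen.

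**Figure D5:**
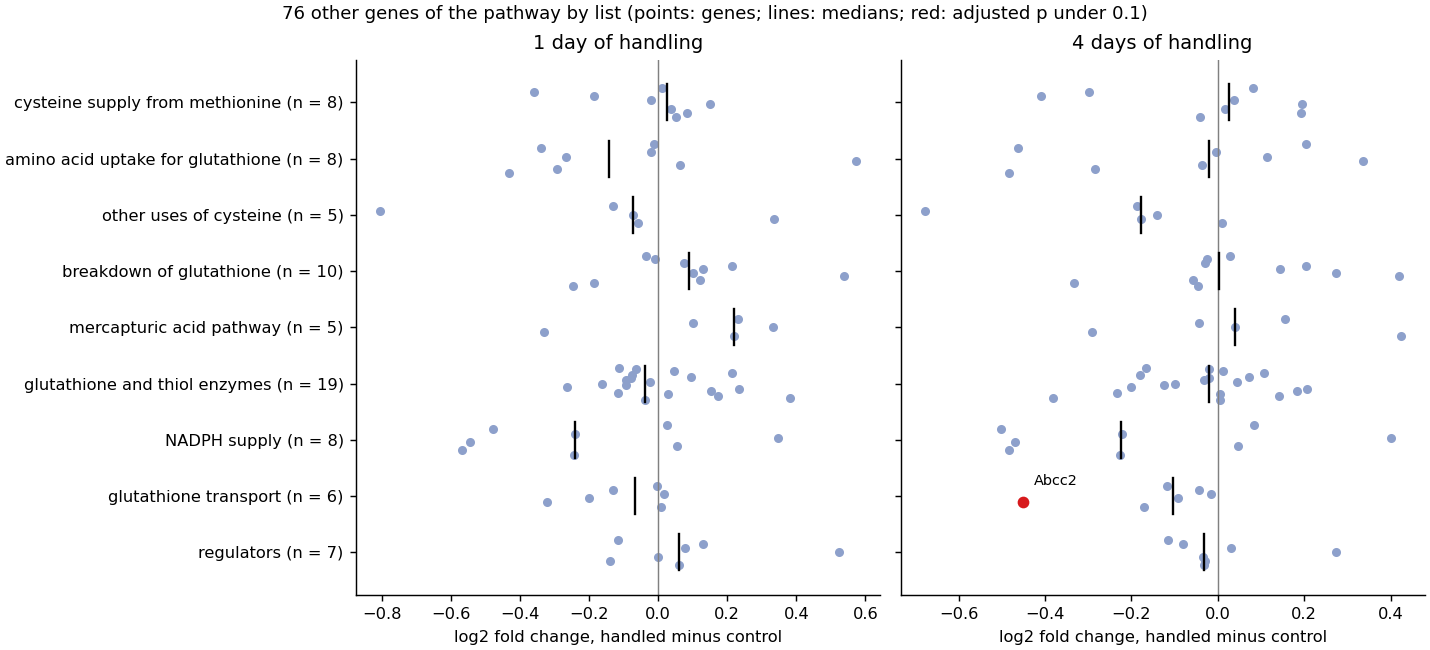
Log2 fold change, handled minus control, of the 76 measured genes of 9 pathway lists after 1 day (left) and 4 days (right), 1 point per gene, with list medians as lines and genes with an adjusted p under 0.1 in red. Abcc2 after 4 days is the only red point, and the NADPH list has the lowest median.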

How the data were processed

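RNA of the left liver lobe of 30 rats, 10 per group, was measured on 1 array each. Each deposited value is the linear intensity of 1 probe set, processed by the authors with Affymetrix GCOS and Rosetta Resolver 7.2. The summarization and scaling steps are not given in the sources used here, and the array means of 1.01 were read from the values. The authors' tests on log10 ratios were not repeated. The table holds 31099 probe sets, and 57 spike-in and other control sets were removed. Of the remaining 31042, 20826 carry 1 gene symbol, 436 carry several and 9780 have none here. Names come from the platform annotation.

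A single limma 3.58.1 model held all 3 groups, fitted to log2 intensities with no offset in R 4.3.3 (lmFit and eBayes, two-sided), with Benjamini-Hochberg adjustment over all probe sets. Calls were made at an adjusted p under 0.1. Genes with several probe sets were taken by their brightest one. Correlations used deviations from group means and 100000 permutations of rats within groups (Python 3.11.15, numpy 2.4.6). Both steps were tested on simulated data. Of 30 arrays 0 pairs were identical. Intensities have no depth, so precision depends on the 10 arrays per group.

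Members and lists were chosen with earlier results of these data known. Genes named are all members, each called listed gene, up to 2 further genes per list with the smallest p in the F test, and for Gss, Oplah and Nat8 the 5 genes with the highest within-group correlation. The lists are cysteine supply from methionine, amino acid uptake, other uses of cysteine, glutathione breakdown, mercapturic acid pathway, glutathione and thiol enzymes, NADPH supply, glutathione transport and regulators. Of the 80 listed genes, 4 lacked a probe set of their own and are not reported here. Of 50 cell type markers in 9 lists (hepatocyte, bile duct, Kupffer, sinusoidal endothelium, stellate, T and NK, B, neutrophil and erythroid cells) 41 were measured. Of these 0 passed after 1 day and 1 after 4 days, where 0.12% and 0.732% of all genes did.

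The fits were repeated with an offset of 0.05 or 1, after quantile normalization, with array weights, with an intensity trend, with a replicate block, on 2 groups at a time, and after removal of the dimmest 40% of probe sets. Other alternatives were the methods' t-test, the exact rank-sum test, other thresholds (adjusted p under 0.05, unadjusted p under 0.001), any probe set of a gene, the Gapdh ratio as a covariate, and leaving out control rats 1 to 3 or each rat. The Gapdh ratio together with leaving out control rats 1 to 3 was added after seeing the data.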

Additional observations from a re-analysis of the deposited data

Results flagged for a closer look

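Of 24 member groups of 10 rats, 2 held a rat far from the others by Dixon's test on log2 intensities, where chance alone flags about 1 in 20 groups. The values below are on the linear scale, on which the test was not run. Gsr in 4-day rat 3 had an intensity of 0.1646, with the other 9 rats of its group at 0.301 to 0.490. Nat8 in control rat 10 had 0.6857, with the other 9 controls at 1.13 to 1.50. Without control rat 10, Nat8 still lay higher in handled rats, and the fits without 1 rat gave 0.74 to 0.92 after 1 day and 0.50 to 0.63 after 4 days.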

How the results depend on the processing

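The signs of Gss, Oplah and Nat8 in both comparisons with control held under 11 alternatives and in all 30 fits without 1 rat. Uncalled members did change sign: over the same alternatives the dimmer Gclc probe set reached 0.22 after 1 day, Gclm -0.07 after 1 day, Gsr 0.16 after 4 days and Ggt1 0.29 after 4 days. The comparison with control chose the genes, so the call counts of members describe the settings and are no test. Of 13 alternatives that give calls, Oplah kept its call in 10 after 1 day (lost with the replicate block and both fits with the Gapdh ratio) and in 11 after 4 days (lost with both Gapdh fits). Nat8 kept its 1-day call in 7, lost with the Gapdh ratio, the block, only the 2 groups, the methods' t-test and the rank-sum test, and passed in 7 after 4 days. Gss kept its 4-day call in 7, lost without control rats 1, 2 and 3 and with the Gapdh ratio, the block, array weights and only the 2 groups. Over the 11 alternatives the log2 fold change of Gss was -0.42 to -0.23 after 1 day and -0.50 to -0.28 after 4 days, that of Oplah 0.33 to 0.57 and 0.25 to 0.45, and that of Nat8 0.51 to 0.86 and 0.34 to 0.62. The smallest sizes came with an offset of 1, which shrinks differences of values near 1 by construction. With it Oplah after 1 day was at 0.33, and the group differences of the log2 ratios of Oplah to Gss and of Nat8 to Gss were 0.56 and 0.74 after 1 day and 0.53 and 0.62 after 4 days, in place of 0.99, 1.24, 0.94 and 1.09. Without 1 rat, Gss was at -0.48 to -0.34 and -0.56 to -0.43, Oplah at 0.54 to 0.61 and 0.41 to 0.49, and Nat8 at 0.74 to 0.92 and 0.50 to 0.63. Gclc by its dimmer probe set (0.22 and 0.48) and Gsr (0.16 after 4 days) moved with the Gapdh ratio as a covariate and without control rats 1, 2 and 3, a setting added after seeing the data. Listed genes called after 1 day were 2 without control rats 1, 2 and 3, in place of 0. After 4 days the count, 1, was 4 without those rats, 2 with an offset of 0.05 or 1, an intensity trend or no dimmest 40% of probe sets (Abcc2 and H6pd), 0 with the Gapdh ratio, with only the 2 groups, with the methods' t-test, with the rank-sum test, at an adjusted p under 0.05 and with the added setting, and 0 to 2 without 1 rat. Correlations called were 1, Nat8 with Ggt1, in place of 0, by rank (-0.60) and after adjustment for the Gapdh ratio (-0.56). Where a value does not show a cause, the cause was not tested.

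Over all probe sets, 28 calls after 1 day and 204 after 4 days became 102 and 257 without control rats 1, 2 and 3, 0 and 5 with the Gapdh ratio, 1 and 27 with only the 2 groups, 55 and 152 with the methods' t-test, 45 and 346 with an offset of 0.05, 127 and 467 with an offset of 1, 69 and 370 with an intensity trend, 113 and 490 without the dimmest 40%, and 21 and 137 with array weights. At an adjusted p under 0.05 they were 1 and 70, and with the added setting 32 and 51. Same-numbered rats correlated weakly, at -0.04 to 0.08, -0.02 to 0.09 and -0.01 to 0.12 in the 3 comparisons. Their means were 0.03, 0.03 and 0.05, against -0.004, -0.004 and -0.006 for rats of other numbers. A rat correlated best with its own number in 6, 2 and 5 of 10 cases. Rats of 1 number were thus slightly more alike, and the source of this was not tested. With the replicate block 2, 85 and 0 probe sets passed, in place of 28, 204 and 0, and 0 listed genes after 4 days. Ggt1 is dim, and its intervals limit what can be said of it.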

Other observations

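Of 41 measured cell type markers 1 passed after 4 days, where 0.732% of all genes did. It was Nkg7, a granule gene of T and NK cells, which fell by a log2 fold change of -0.42 ± 0.11 (limma with Benjamini-Hochberg adjustment, adjusted p = 0.0902). Of the 6 T and NK cell markers 4 were lower after 4 days and 2 higher, Cd3e at 0.27 ± 0.22 and Cd3g at 0.03 ± 0.22. Nkg7 fell by 0.49 ± 0.12 (limma, adjusted p = 0.0559) without control rats 1, 2 and 3, and did not pass with the Gapdh ratio as a covariate (-0.48 ± 0.14, adjusted p = 0.326). The summed intensity of 5 Kupffer cell markers was 20.2 to 33.7 after 1 day and 16.9 to 23.9 after 4 days, against 19.6 to 31.7 in control rats. After 4 days 3 of 5 were lower at an unadjusted p under 0.05 in limma, where 12.6% of all genes were under 0.05 in either direction. Of the 5, 0 passed the test, and Cd163 went the other way, at 0.19 ± 0.12. No member is a marker of these cells in the lists, and their part in the members' changes was not tested.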
